A study of Mus musculus with 10 samples.

Results

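The genes described here are 10 cytokine genes of the mouse, which were the rows of the count tables with the symbols *Il1b*, *Il18*, *Tnf*, *Il6*, *Il15*, *Il12b*, *Il10*, *Csf1*, *Csf2* and *Csf3*. They were 10 of 55401 gene rows, and each symbol had a single row. RNA was sequenced from whole B16F10 tumors, a poorly immunogenic melanoma line grown under the skin of the flank in adult female wild-type C57BL/6J mice. In the KO group (n = 5 tumors) the injected cells carried a CRISPR-Cas9 knockout of *Mir25*, the gene of the microRNA miR-25. In the NTC group (n = 5 tumors) they carried a non-targeting control. Every mouse in both groups received Comb, which is GVAX (1000000 irradiated B16 cells that secrete GM-CSF, placed in the other flank on days 1 and 4) plus an antibody to PD-1 at 10 mg/kg on days 6, 9 and 12. Tumors were labelled as taken on day 15. Only the tumor cells were edited, so the host leukocytes and stroma had an intact *Mir25* in both groups. The study made its lines with several guides as selected cell populations, and the labels do not say which guide or line these tumors carried. No untreated tumors were analysed here. The labels do not say that each tumor came from a separate mouse, so the p-values measure the spread between tumors.

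Cytokines are short-lived secreted proteins with which immune and stromal cells signal to each other. IL-1β and IL-18 are made as inactive precursors and are cut by caspase-1 inside inflammasomes. TNF is shed from the cell surface by the protease ADAM17 and acts through NF-κB. IL-12, a pair of the p40 chain (*Il12b*) and the p35 chain (*Il12a*), is made by activated dendritic cells and macrophages and drives IFN-γ production in T and NK cells. IL-10 restrains the same antigen-presenting cells. IL-15 keeps NK cells and memory CD8+ T cells alive. The colony-stimulating factors support macrophages (M-CSF, *Csf1*), granulocytes and macrophages (GM-CSF, *Csf2*) and neutrophils (G-CSF, *Csf3*).

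The comparison asked whether the mRNA of these cytokines differed between tumors of cells with and without miR-25. A microRNA lowers its targets through pairing of its seed, bases 2 to 8, with the 3′ UTR of an mRNA. Mature miR-25-3p (RefSeq, GRCm38.p6, chr5:138165332-138165353, minus strand) is shown with its seed in capitals, followed by the 2 members' 3′ UTR sites that match the seed, with the 7 matching bases in capitals. The sites were read on GRCm38 with the GENCODE M21 annotation.
miR-25-3p: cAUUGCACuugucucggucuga
Tnf 3′ UTR, chr17:35199758-35199764, minus strand: tcttccctgagGTGCAATgcacagccttc
Il6 3′ UTR, chr5:30019342-30019348, plus strand: aaaaaaaaaatGTGCAATatttaaccagt
The *Tnf* match began at base 381 of a 3′ UTR of 764 bases. The *Il6* match was followed by an A, the base that makes it an 8-base match, and lay only in a longer annotated transcript, at base 1029 of 1668. The 3′ UTRs of the other 8 genes held no such match. Among all 20829 genes with an annotated 3′ UTR, 1457 (7.0%) held one. A match is a description of the letters and not a measured site. Host cells in these tumors had not lost miR-25, and these bulk counts cannot tell whether a *Tnf* or *Il6* read came from a host cell or from an edited cell.

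The RefSeq promoter table held a window for 7 of the 10 genes. In the 250 bases before the start of transcription, the NF-κB letters, GGG and CC with any 5 bases between them, read on both strands, occurred in *Csf1*, *Il6* and *Tnf*, against 45.8% of all 32851 windows. Those of AP-1, TGANTCA, occurred in *Il6* alone among the members, against 6.75% of windows. None of the 7 windows held TGACGTCA (CRE, 1.55% of windows) or the IRF letters, GAAA and GAAA with any 2 bases between them (2.98%). The upstream bases of *Il12b*, which had the largest fold change of the 7 members that could be tested, are shown beside those of *Tnf*, with the NF-κB letters in capitals where present (RefSeq, GRCm38.p6, 5′ to 3′).
Il12b, chr11:44399813-44400062, plus strand: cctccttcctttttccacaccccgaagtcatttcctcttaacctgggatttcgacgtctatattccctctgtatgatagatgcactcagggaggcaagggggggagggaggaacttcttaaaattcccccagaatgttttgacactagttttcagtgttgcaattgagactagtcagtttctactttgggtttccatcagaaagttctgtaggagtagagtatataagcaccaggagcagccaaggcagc
Tnf, chr17:35202008-35202257, minus strand: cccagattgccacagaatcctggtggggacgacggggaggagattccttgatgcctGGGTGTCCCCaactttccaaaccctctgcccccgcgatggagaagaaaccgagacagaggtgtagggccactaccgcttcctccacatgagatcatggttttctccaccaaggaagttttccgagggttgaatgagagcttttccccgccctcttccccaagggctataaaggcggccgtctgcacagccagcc
The absence of these letters from the *Il12b* window says only that they are not within these 250 bases.

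The 5 KO tumors had between 23243707 and 27006075 reads on genes, and the 5 NTC tumors between 11896643 and 28682130. The lowest total belonged to NTC replicate 1, in which 42.9% of the reads in the table fell outside genes, against 17.5 to 28.2% in the other 9 tumors. This tumor also stood apart in several cytokines, so the group comparison of each tested cytokine is given over all 10 tumors and over the 9 tumors without it. All 10 melanoma cell markers were detected in every tumor, with sums of 15520 to 24970 CPM in KO, 14450 CPM in NTC replicate 1 and 24360 to 26800 CPM in the other NTC tumors. Their log2 fold changes were negative for 9 of 10 over 10 tumors and for all 10 over 9 tumors, where 3 had an unadjusted p under 0.05, as did 8.10% of all genes in that direction. Skeletal muscle markers summed to as much as 204 CPM in KO and 7.01 CPM in NTC, and keratinocyte markers to 44.9 and 3.95 CPM, and their part in the results was not tested. Levels are CPM, that is reads per 1000000 reads on the genes tested, after TMM scaling. The TMM factor was 0.628 in NTC replicate 1 and 0.97 to 1.11 in the other 9 tumors. A lower factor raises every CPM of a tumor, so part of the height of NTC replicate 1 comes from this scaling. Tests were edgeR's quasi-likelihood tests with Benjamini-Hochberg adjustment over all genes tested, and a gene was called at an adjusted p under 0.05 with an absolute log2 fold change above 1. Log2 fold changes are KO minus NTC, and a positive value is higher in KO. Over 10 tumors, 0.0190% of 15821 genes were called, and none of the cytokines was among them. *Il1b*, *Il18*, *Tnf*, *Il15*, *Il12b*, *Il10* and *Csf1* passed the filter on low counts. *Il6*, *Csf2* and *Csf3* did not and are given by their reads.

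*Il12b* had the largest difference of the 7 tested genes. Its level was 1.76, 3.87, 1.08, 0.613 and 3.11 CPM in KO replicates 1 to 5, and 0.808, 0.131, 0.126, 0.325 and 1.01 CPM in NTC replicates 1 to 5. All KO tumors except replicate 4 were above every NTC tumor, and KO replicate 4 was below NTC replicates 1 and 5, so the groups overlapped. The log2 fold change was 2.19 (SE 0.71, 95% interval 0.62 to 3.75, n = 5 against 5), a 4.56-fold higher level in KO, with an edgeR p of 0.0107 and an adjusted p of 0.366. At an unadjusted p under 0.05, 3.99% of all genes were higher in KO and 4.85% were lower, and *Il12b* was the only one of the 7 tested cytokines on either side. Over the 9 tumors the log2 fold change was 2.34 (SE 0.74) with an edgeR adjusted p of 0.176. DESeq2 over the same 9 tumors called it (log2 fold change 2.40, adjusted p 0.0244), as it did 3.27% of all genes in the same direction. In that fit 14.6% of all genes were higher and 7.89% lower at an unadjusted p under 0.05. DESeq2 over 10 tumors gave an adjusted p of 0.0930. *Il12b* reached the cutoff of the filter, 0.386 CPM, in all 5 KO tumors and in 2 NTC tumors, so it entered the test through the group in which it was higher. It rested on 264 reads in KO and 51 in NTC. In bulk tumors, fewer cells of a type and less RNA per cell cannot be told apart.

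No cytokine had all KO tumors above all NTC tumors, over 10 tumors or over 9, which 0.866% and 2.74% of all genes did.

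**Figure D1:**
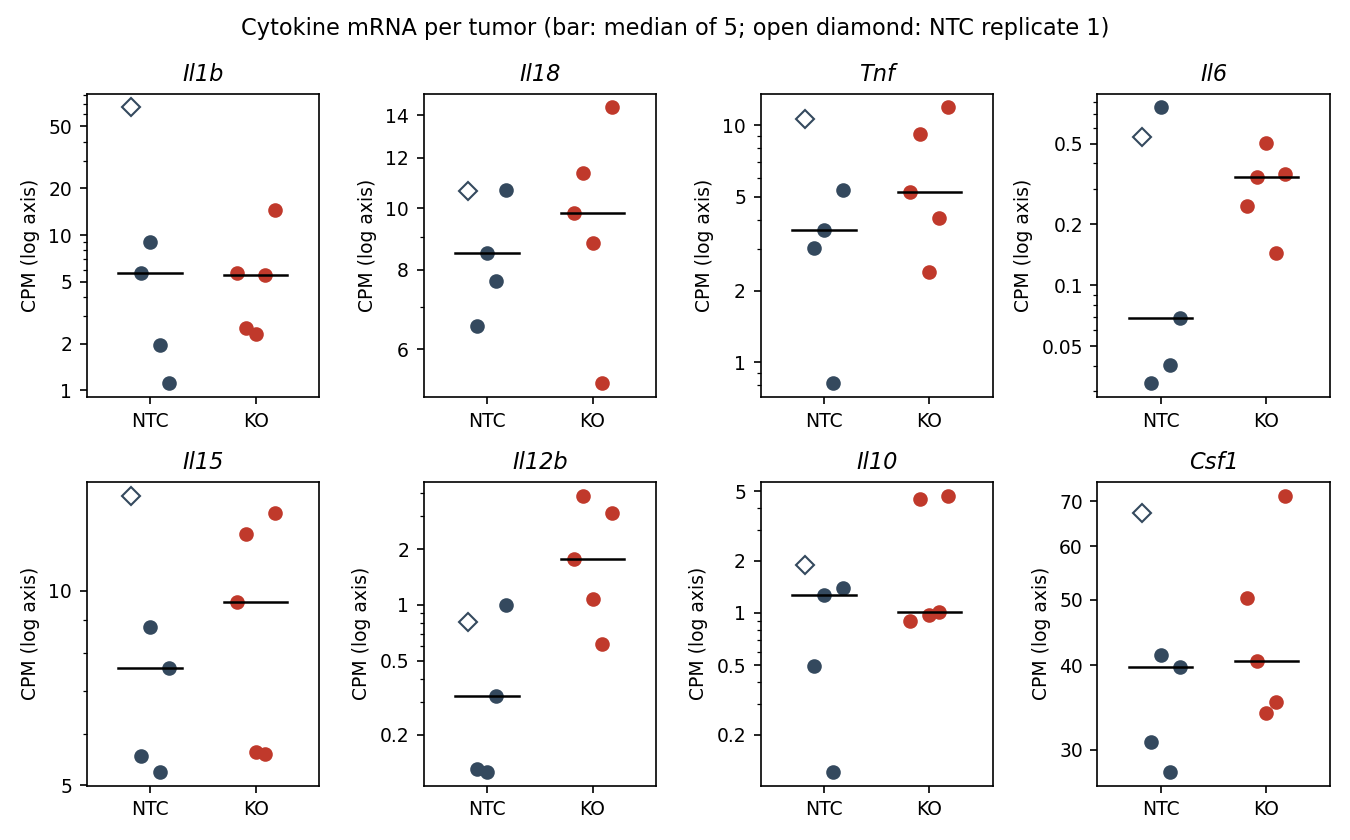
CPM of 8 cytokine genes in each tumor, on a log axis that differs between panels, with NTC at the left and KO at the right of each panel. Points are tumors, bars are medians of 5, and the open diamond is NTC replicate 1. *Il12b* has 4 of 5 KO points above every NTC point, and NTC replicate 1 stands at 66.4 CPM for *Il1b*.

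The second chain of IL-12 was barely detected. *Il12a* had 0 reads in KO tumors and 1 read in NTC tumors, and *Il23a*, which pairs with p40 to form IL-23, had 7 and 6 reads. *Ebi3* and *Il27*, the chains of the related IL-27, passed the filter. *Il27* had a log2 fold change of 1.19 (SE 0.65, edgeR p 0.0931), and *Ebi3* one of 0.57 (SE 0.85, p 0.517). Over 9 tumors the values were 1.44 for *Il27* and 1.38 for *Ebi3*, and neither reached an unadjusted p under 0.05. Neither receptor chain for IL-12 had an unadjusted p under 0.05 over 10 tumors. *Il12rb2* had a log2 fold change of 1.10 (SE 0.56, p 0.0752) over 10 tumors and 1.44 (SE 0.53, p 0.0217) over 9. *Il12rb1*, shared with the IL-23 receptor, had 0.60 (SE 0.28, p 0.0587) and 0.51 (SE 0.30, p 0.113). *Ifng*, the main product of IL-12 signalling, had 0.58 (SE 0.53, p 0.292) over 10 tumors and 0.63 over 9.

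Markers of several host cell types had higher values in KO, as *Il12b* did. Of 10 dendritic cell markers, all had positive log2 fold changes, with a median of 1.05, where 8120 of all 15821 genes were positive. An unadjusted p under 0.05 with a higher level in KO was reached by 3 of the 10 and by 3.99% of all genes. These were *Ccr7*, the receptor that guides activated dendritic cells (1.96, SE 0.52, p 0.00330), *Clec9a*, a receptor of the cross-presenting subset (1.89, SE 0.62, p 0.0116), and the integrin *Itgax* (1.11, SE 0.38, p 0.0148). Others were near 0, such as *Fscn1* (0.04, p 0.911). None had an adjusted p under 0.05. T and NK cell markers had a median of 1.10, with 9 of 10 positive, and summed to 34.2 to 205 CPM in KO and 18.5 to 94.2 CPM in NTC. Fibroblast markers had a median of 0.51, with 8 of 8 positive, and summed to 1095 to 6061 CPM in KO, to 6758 CPM in NTC replicate 1 and to 67.6 to 1820 CPM in the other NTC tumors. Over 9 tumors the medians were 1.08 for dendritic cell, 1.40 for T and NK cell and 1.62 for fibroblast markers. Other lists were mixed over 10 tumors. Neutrophil markers had a median of -0.38, with 2 of 6 tested genes positive, and of 2.25 over 9 tumors, with 6 of 6. Mast cell and basophil markers had -0.11 (1 of 3 positive) and 0.38. Endothelial markers had 0.19 (4 of 6) and 0.55, and B cell markers 0.83 (2 of 3) and 1.38. Summed over the 10 dendritic cell markers, the level was 60.4 to 152 CPM in KO and 30.1 to 87.0 CPM in NTC, and no marker was at 0 in any tumor. The 10 pan-leukocyte genes together stood at 840 to 3368 CPM in KO, at 2677 CPM in NTC replicate 1 and at 526 to 1210 CPM in the other NTC tumors. With the leukocyte score (the mean log2 CPM of those 10 genes) as a covariate, the log2 fold change of *Il12b* was 1.13 (SE 0.51, edgeR p 0.0471, adjusted p 0.382), in a fit in which 6.23% of all genes were higher and 6.59% lower at an unadjusted p under 0.05. Expressed per 1000 reads of the pan-leukocyte genes, *Il12b* stood at 1.05, 1.41, 1.16, 0.730 and 0.925 in KO replicates 1 to 5, and at 0.302, 0.247, 0.127, 0.619 and 0.832 in NTC replicates 1 to 5. On that scale, too, 4 of 5 KO tumors were above every NTC tumor. KO replicate 4 again fell below NTC replicate 5. Among the 10 pan-leukocyte genes, *Arhgdib* hardly varied, at 213 to 270 CPM in KO and 205 to 271 CPM in NTC. It thus made up more of the sum, and lowered these ratios more, in tumors where the sum was low. The scale without *Arhgdib* was not computed, so the 4 of 5 is not separate support for the difference in CPM. The part of dendritic cells, or of the other cell types, in the *Il12b* difference was not tested.

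**Figure D2:**
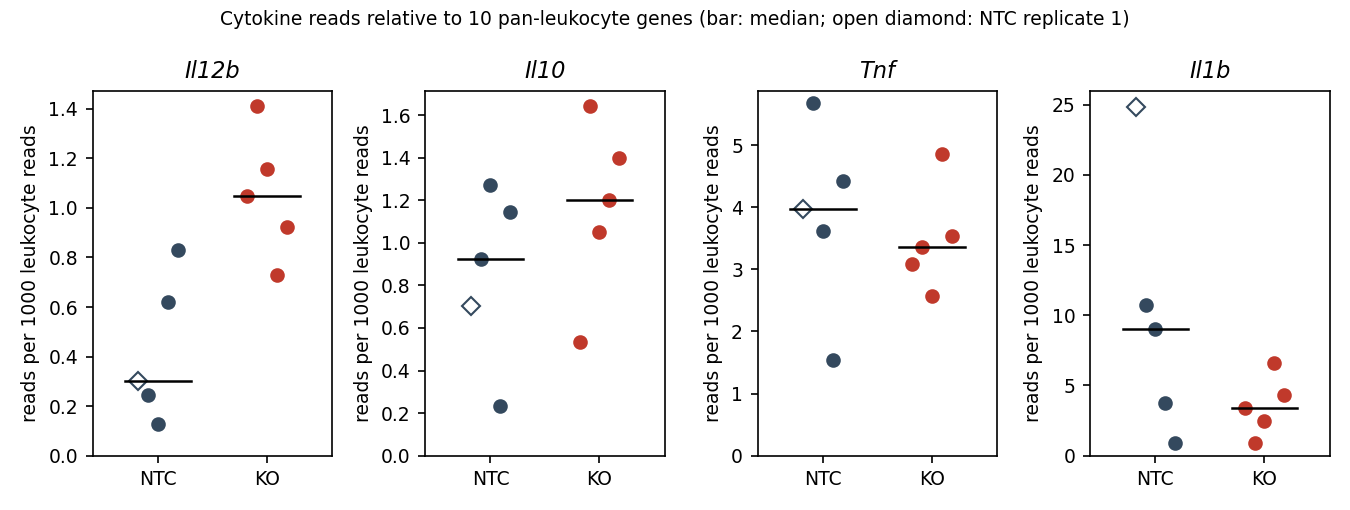
Reads of *Il12b*, *Il10*, *Tnf* and *Il1b* per 1000 reads of 10 pan-leukocyte genes, in each tumor. Bars are medians and the open diamond is NTC replicate 1. *Il12b* medians are 1.05 in KO and 0.302 in NTC, while *Tnf* medians are 3.36 in KO and 3.98 in NTC.

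*Il10*, whose product restrains antigen-presenting cells, was high in 2 KO tumors. Its level was 0.902, 4.52, 0.977, 1.01 and 4.72 CPM in KO replicates 1 to 5, and 1.89, 0.492, 1.26, 0.122 and 1.39 CPM in NTC replicates 1 to 5. KO replicates 2 and 5 were above every NTC tumor, and the other 3 KO tumors lay within the NTC range. The log2 fold change was 1.28 (SE 0.73, 95% interval -0.34 to 2.90, edgeR p 0.110, adjusted p 0.645), and 1.51 over 9 tumors (adjusted p 0.290). With the leukocyte score as a covariate it was 0.08, and per 1000 leukocyte reads the groups overlapped, at 0.536 to 1.65 in KO and 0.232 to 1.27 in NTC. Its receptor chain *Il10ra* had a log2 fold change of 1.09 (SE 0.61, p 0.103) over 10 tumors and 1.46 (SE 0.59, p 0.0329) over 9, and the widely expressed *Il10rb* had 0.11 and 0.19.

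The *Il1b* comparison turned on a single tumor. Its level was 5.74, 2.51, 2.32, 5.55 and 14.5 CPM in KO replicates 1 to 5, and 66.4, 5.71, 8.96, 1.95 and 1.11 CPM in NTC replicates 1 to 5. NTC replicate 1 was above all other tumors, and the highest NTC tumor had 59.8 times the level of the lowest. The mean was 6.12 ± 4.94 CPM in KO and 16.8 ± 27.9 CPM in NTC (SD, n = 5), and 4.43 ± 3.62 CPM in NTC without replicate 1 (SD, n = 4). Over 10 tumors the log2 fold change was -1.43 (SE 1.03, edgeR p 0.193, adjusted p 0.722). Over 9 tumors it was 0.42 (SE 0.68, adjusted p 0.757), so the direction turned with that tumor. Summed neutrophil markers were also highest there. The sum was 160 CPM in NTC replicate 1, against 5.22 to 16.3 CPM in the other NTC tumors and 12.2 to 84.4 CPM in KO, with *S100a8* at 26.0 and *S100a9* at 36.4 CPM. Of the 10 markers, 6 were highest in that tumor, and *Csf3r*, *Retnlg*, *Camp* and *Ngp* were higher in a KO tumor. Of the 10 neutrophil markers, *Cxcr2*, *Ly6g*, *Camp* and *Ngp* were at 0 in at least 1 tumor. *Cxcl2*, a chemokine gene that IL-1 and NF-κB induce, stood at 76.3 CPM in NTC replicate 1 and at 0.163 to 0.599 CPM in the other NTC tumors. The part of neutrophils in the *Il1b* level was not tested.

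Several genes that surround IL-1β also changed their values with that tumor. Its receptor *Il1r1* had a log2 fold change of 0.18 (SE 0.98, p 0.860) over 10 tumors and 1.65 (SE 0.78, p 0.0595) over 9. The accessory chain *Il1rap* did not, at 21.2 to 25.7 CPM in KO and 21.0 to 29.5 CPM in NTC, with log2 fold changes of -0.10 and -0.07. The receptor antagonist *Il1rn* reached 192 CPM in NTC replicate 1, and its log2 fold change was -0.05 (SE 0.80, p 0.954) over 10 tumors and 1.23 (SE 0.56, p 0.0512) over 9. The decoy receptor *Il1r2* had 0.05 and 0.64. Of the 10 processing and inflammasome genes, 9 had positive log2 fold changes over 10 tumors (median 0.50) and none had an unadjusted p under 0.05. Over 9 tumors, in which 12.0% of 16078 genes were higher and 8.10% lower at that threshold, 5 of the 10 were higher. They were the inflammasome sensors *Nlrp3* (1.77, SE 0.44, p 0.00241), *Nlrc4* (1.94, SE 0.66, p 0.0149) and *Aim2* (1.70, SE 0.59, p 0.0166), and *Rhbdf2* (0.83, SE 0.31, p 0.0250) and *Adam10* (0.29, SE 0.11, p 0.0262), which belong to the shedding machinery of surface proteins. None had an adjusted p under 0.05. *Casp1*, the enzyme that matures both IL-1β and IL-18, had 0.62 (SE 0.60, p 0.323) and 0.96 (SE 0.58, p 0.128).

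*Il18* was close in all NTC tumors, with a highest level 1.64 times the lowest. Its level was 9.84, 11.4, 8.83, 5.30 and 14.4 CPM in KO replicates 1 to 5, and 10.6, 6.53, 8.49, 7.69 and 10.7 CPM in NTC replicates 1 to 5. Both the highest and the lowest tumor were KO. *Il18* had a log2 fold change of 0.18 (SE 0.25, 95% interval -0.39 to 0.74, edgeR adjusted p 0.861), and 0.22 over 9 tumors. The gene overlaps *Bco2*, annotated on the opposite strand with 12 to 105 reads per tumor, and the strand setting of the counting is not given in the sources used here. The receptor chains *Il18r1* and *Il18rap* had log2 fold changes of 0.95 (SE 0.80, p 0.261) and 0.86 (SE 0.66, p 0.224), and of 1.64 and 1.31 over 9 tumors. *Il18bp*, the soluble inhibitor of IL-18, stood at 50.8 to 266 CPM in KO and 48.6 to 168 CPM in NTC, with a log2 fold change of 0.61 (SE 0.47, p 0.224), and of 0.86 over 9 tumors. *Sigirr*, an inhibitory receptor of the IL-1 family, was the only one of the 8 antagonists and decoys with an unadjusted p under 0.05 over 10 tumors, where 4.85% of all genes were lower at that threshold. It was lower in KO, at 5.03 to 7.44 CPM against 6.43 to 10.3 CPM, with a log2 fold change of -0.42 (SE 0.19, p 0.050) and of -0.49 (SE 0.21, p 0.0385) over 9 tumors. Its ranges overlapped and its adjusted p over 9 tumors was 0.229.

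*Tnf*, one of the 2 members with a miR-25 seed match in its 3′ UTR, was at 5.21, 9.23, 2.39, 4.07 and 11.9 CPM in KO replicates 1 to 5. It was at 10.6, 3.02, 3.60, 0.813 and 5.34 CPM in NTC replicates 1 to 5. KO replicate 5 was the highest and NTC replicate 4 the lowest, and the groups overlapped over most of their range. The log2 fold change was 0.52 (SE 0.61, 95% interval -0.83 to 1.87, edgeR p 0.415, adjusted p 0.830), and 0.99 over 9 tumors (SE 0.56, p 0.105, adjusted p 0.340). With the leukocyte score as a covariate it was -0.29. Per 1000 leukocyte reads the range was 2.57 to 4.85 in KO and 1.55 to 5.67 in NTC. *Tnfrsf1b*, the TNF receptor of leukocytes, had a log2 fold change of 1.21 (SE 0.75, p 0.138) over 10 tumors and 2.06 (SE 0.64, p 0.00950) over 9. The ubiquitous receptor *Tnfrsf1a* had 0.26 (SE 0.19) and 0.40 (SE 0.14, p 0.0177). The sheddase *Adam17* had 0.22 (SE 0.19, p 0.267) and 0.34 (SE 0.15, p 0.0503).

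Genes that NF-κB induces, as TNF and IL-1 do through it, showed no common direction over 10 tumors. Of 14 tested, 9 had positive log2 fold changes, with a median of 0.28. *Nfkb2*, a subunit of the alternative pathway, was higher in KO (0.64, SE 0.19, p 0.00697), at 33.5 to 51.8 CPM against 18.7 to 35.3 CPM. *Cxcl2* was lower (-4.03, SE 1.79, p 0.0465) and turned to 1.18 (SE 0.84, p 0.192) without NTC replicate 1. Over 9 tumors 12 of the 14 were positive, and *Nfkb2* (0.59, p 0.0141), *Bcl3* (1.00, SE 0.38, p 0.0263) and *Traf1* (1.37, SE 0.49, p 0.0199) had an unadjusted p under 0.05. These were 3 of 14, all higher in KO, in a fit in which 12.0% of all genes were higher and 8.10% lower at that threshold. The feedback inhibitors *Nfkbia* and *Tnfaip3* had log2 fold changes of 0.18 and 0.50 over 10 tumors and of 0.83 each over 9, where *Tnfaip3* had a p of 0.0343. None of these genes had an adjusted p under 0.05 in either fit.

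*Il15* was at 9.60, 12.2, 5.63, 5.59 and 13.2 CPM in KO replicates 1 to 5, and at 14.0, 5.55, 8.77, 5.25 and 7.60 CPM in NTC replicates 1 to 5. NTC replicate 1 was the highest and the lowest tumors of both groups were close to each other. Between groups the log2 fold change was 0.18 (SE 0.34, 95% interval -0.57 to 0.93, edgeR adjusted p 0.896), and 0.40 over 9 tumors (adjusted p 0.453). With the leukocyte score as a covariate it was -0.37 (edgeR p 0.0327, adjusted p 0.335), in the opposite direction. IL-15 is presented on IL-15Rα and signals through *Il2rb* and *Il2rg*. *Il15ra* had a log2 fold change of 0.63 (SE 0.47, p 0.201), *Il2rb* of 0.83 (SE 0.55, p 0.161) and *Il2rg* of 1.02 (SE 0.59, p 0.113). Over 9 tumors *Il15ra* had 0.91 (p 0.0660), *Il2rb* 0.89 (p 0.158) and *Il2rg* 1.37 (SE 0.57, p 0.0369).

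*Il6*, which holds the other seed match, was near the limit of detection. It had 6, 9, 15, 4 and 8 reads in KO replicates 1 to 5 and 4, 1, 24, 1 and 2 reads in NTC replicates 1 to 5. Of the 32 NTC reads, 24 came from replicate 3, which exceeded every KO tumor. The summed reads gave a KO to NTC ratio of 1.24, with an exact 95% interval of 0.761 to 2.02 that covers counting error only. In the fit without a filter the log2 fold change was 0.25 (SE 0.86, edgeR adjusted p 0.915). Its receptor chains passed the filter. *Il6st*, the signalling chain gp130, stood at 139 to 230 CPM in KO and 99.9 to 189 CPM in NTC. It was the only one of the 20 receptor genes with an unadjusted p under 0.05 over 10 tumors (0.42, SE 0.19, p 0.0449). In that fit 3.99% of all genes were higher at that threshold. Over 9 tumors *Il6st* had 0.55 (SE 0.14, p 0.00356). *Il6ra* had 1.13 (SE 0.70, p 0.138) and 1.83 (SE 0.61, p 0.0135). *Socs3*, the feedback inhibitor of gp130 signalling, had 0.01 and 0.15.

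*Csf1* was the cytokine with the most reads. Its level was 50.3, 40.6, 34.0, 35.4 and 71.3 CPM in KO replicates 1 to 5, and 67.4, 30.8, 41.5, 27.8 and 39.8 CPM in NTC replicates 1 to 5. KO replicate 5 and NTC replicate 1 were above the other 8 tumors. KO minus NTC, the log2 fold change was 0.16 (SE 0.27, 95% interval -0.44 to 0.77, edgeR adjusted p 0.879), and 0.37 over 9 tumors (adjusted p 0.369). Its receptor *Csf1r*, which marks macrophages, had 1.01 (SE 0.70, p 0.176) over 10 tumors and 1.84 (SE 0.57, p 0.00934) over 9. All 10 macrophage and monocyte markers had positive values in both fits, with medians of 0.97 and 1.62, and their sum ran from 975 to 4277 CPM in KO and from 332 to 3623 CPM in NTC, where the tumors other than replicate 1 reached at most 1378 CPM. No macrophage marker was at 0 in any tumor.

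*Csf2*, the gene of the cytokine that the GVAX cells secrete, had 2, 1, 1, 4 and 6 reads in KO replicates 1 to 5 and 0, 1, 0, 1 and 0 reads in NTC replicates 1 to 5. It was detected in every KO tumor and in 2 NTC tumors. The ratio of the summed reads, 14 against 2, was 6.59 with an exact 95% interval of 1.51 to 59.7 for counting error only. The fit without a filter, which carries the spread between tumors, gave a log2 fold change of 2.46 (SE 1.32, edgeR p 0.0797, adjusted p 0.466). A count of 0 in NTC replicate 1 allows up to 0.404 CPM, taking 3 reads as the limit, which is above the *Csf2* level of every KO tumor. *Gm12223* overlaps the gene, with 0 to 2 reads per tumor. The vaccine was given in the other flank, and these reads do not show which cells they came from. The receptor chains *Csf2ra*, *Csf2rb* and *Csf2rb2* had log2 fold changes of 0.85 (SE 0.55), 0.89 (SE 0.64) and 0.70 (SE 0.77) over 10 tumors. Over 9 tumors they had 1.60 (SE 0.36, p 0.00113), 1.70 (SE 0.48, p 0.00571) and 1.90 (SE 0.53, p 0.00478). *Csf2rb* and *Csf2rb2* are near-identical neighbours, and reads could be split between them.

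*Csf3* had 0, 0, 1, 1 and 0 reads in KO replicates 1 to 5 and 5, 0, 1, 0 and 0 reads in NTC replicates 1 to 5. NTC replicate 1 thus held 5 of the 8 reads in the series. The summed ratio was 0.314 (exact 95% interval 0.0310 to 1.76, counting error only), and 1.77 without that tumor (0.0921 to 104). The receptor *Csf3r*, a neutrophil gene, had log2 fold changes of 1.07 (SE 0.81, p 0.213) and 1.82 (SE 0.74, p 0.0341).

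**Figure D3:**
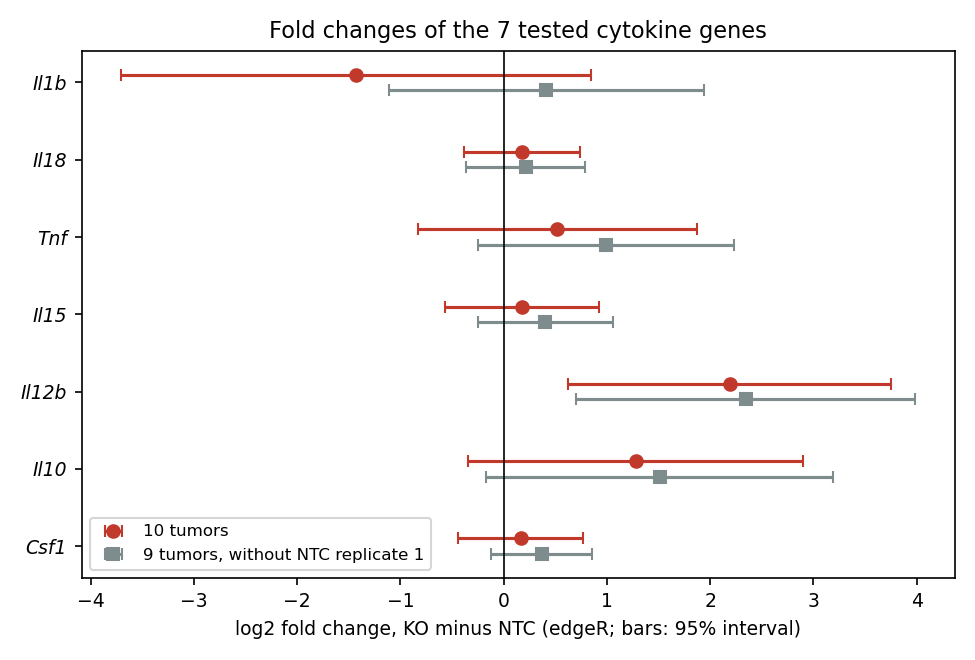
Log2 fold change (KO minus NTC, edgeR) of the 7 tested cytokine genes, with 95% intervals, over all 10 tumors (circles) and the 9 without NTC replicate 1 (squares). The interval of *Il12b* lies above 0 in both fits, at 0.62 to 3.75 over 10 tumors, and *Il1b* moves from -1.43 to 0.42.

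By role, most of the receptor genes had higher values in KO. Of 20 receptor genes, 19 had positive log2 fold changes in each fit, with a median of 0.85 over 10 tumors and 1.45 over 9. For the 7 tested cytokines the medians were 0.18 and 0.42, and for all genes 0.01 and -0.02, with 8120 of 15821 genes positive over 10 tumors. Receptor genes with an unadjusted p under 0.05 and a higher level in KO numbered 1 of 20 over 10 tumors, where 3.99% of all genes did so, and 12 of 20 over 9, where 12.0% did. None was called in either fit. *Csf1r* and *Csf3r* also stand in the macrophage and neutrophil marker lists. The pan-leukocyte genes had medians of 0.85 and 1.50 in the same fits, and 7 of those 10 genes were higher at an unadjusted p under 0.05 over 9 tumors, against the same 12.0% of all genes. Of 23 related cytokines, 12 were tested. *Ltb*, the membrane-anchored lymphotoxin β chain, had an unadjusted p under 0.05 in both fits (1.37, SE 0.49, p 0.0184; over 9 tumors 1.49, SE 0.51, p 0.0157). Its level was 2.42 to 12.1 CPM in KO and 1.44 to 4.58 CPM in NTC. Over 9 tumors the IL-1 family gene *Il1a* (1.55, p 0.0365), the gp130 ligand *Lif* (1.27, p 0.00499), *Il16* (1.52, p 0.0385) and the death ligand *Fasl* (1.36, p 0.0470) did as well. With *Ltb* these were 5 of the 12 tested, against 12.0% of all genes, and none had an adjusted p under 0.05. The T helper cytokines *Il2*, *Il4*, *Il5*, *Il13*, *Il17a* and *Il21* stayed below the filter, and *Il22* had no read in any tumor.

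**Figure D4:**
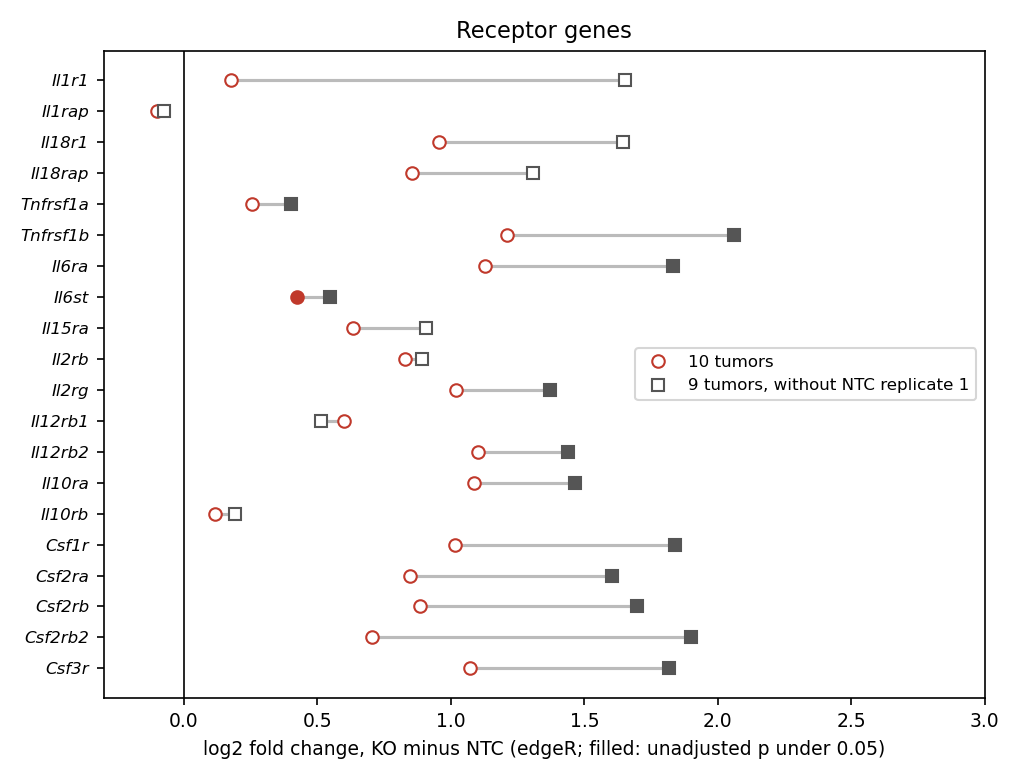
Log2 fold change (KO minus NTC, edgeR) of the 20 receptor genes over 10 tumors (circles) and over the 9 without NTC replicate 1 (squares). Filled symbols have an unadjusted p under 0.05, which 1 gene has over 10 tumors and 12 have over 9, and only *Il1rap* lies below 0.

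Several members were high in the same tumors. KO replicate 5 was among the 2 highest tumors for all 7 tested genes. NTC replicate 1 was among them for *Il1b*, *Tnf*, *Il15* and *Csf1*, and KO replicate 2 for *Il18*, *Il12b* and *Il10*. NTC replicates 2 and 4 were each among the 2 lowest tumors for 5 of the 7. The leukocyte score followed a like order, from 4.97 in NTC replicate 4 and 5.05 in NTC replicate 2 to 7.42 in NTC replicate 1, 7.82 in KO replicate 2 and 8.08 in KO replicate 5. Across the 10 tumors, in each of which the genes share a library, its depth and its cell content, the log2 levels of *Tnf* and *Il10* had the highest correlation among the members (Pearson's r 0.918), followed by *Il15* and *Csf1* (0.893). The lowest was that of *Il1b* and *Il12b* (-0.037). These correlations are descriptions.

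**Figure D5:**
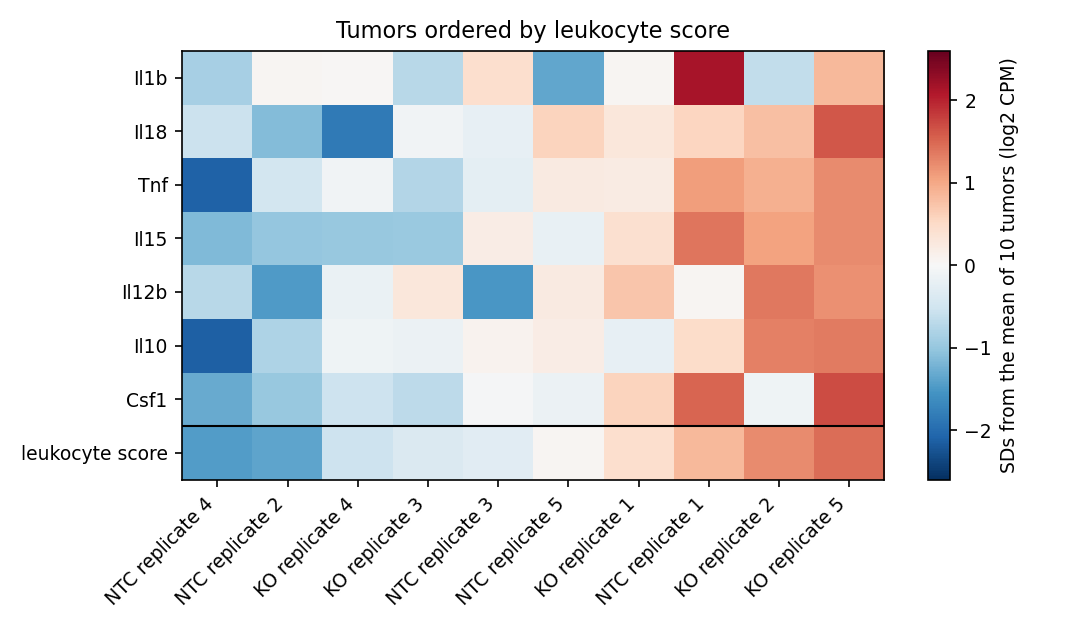
Log2 CPM of the 7 tested cytokine genes in each tumor, as SDs from that gene's mean over 10 tumors, with the leukocyte score in the bottom row and the tumors ordered by it from left to right. *Il1b* in NTC replicate 1 stands 2.15 SDs above its mean, and KO replicate 5 is above the mean in every row.

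Levels of different genes were compared as CPM per kilobase of exon, over all 10 tumors. *Il18* (9.10) and *Csf1* (8.31) stood highest, followed by *Il1b* (6.02), *Il15* (3.86), *Tnf* (3.43), *Il10* (1.32), *Il12b* (0.653), *Il6* (0.125), *Csf2* (0.0798) and *Csf3* (0.0548). Only *Tnf* and *Il10* among these neighbours differed in the same direction in all 10 tumors by more than the SD of their difference. The other neighbours in the order did not differ beyond their spread. The place of *Il1b* rested on NTC replicate 1, which stood at 34.8. Without that tumor *Il1b* averaged 2.82 and came after *Il15* (3.61) and *Tnf* (3.09), and *Csf1* was above *Il15* in all 9 tumors. In KO tumors *Il1b* likewise followed both, at 3.21. In NTC tumors its mean was the highest, at 8.83, although it exceeded *Il18* in 1 of 5 tumors. In KO tumors, *Csf2* came before *Il6*, at 0.141 and 0.131, but was above it in only 3 of 5 tumors. That difference was not beyond its spread.

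The genes whose levels were most like each member were sought over the 10 tumors by Pearson's r on log2 CPM, with no test. For *Il12b* they included *H2-M2* (0.981) and the dendritic cell marker *Clec9a* (0.967), and *Clec9a* kept 0.968 over 9 tumors. For *Tnf* they were *Prr5l* (0.991), *Acod1* (0.979) and *Il27ra* (0.969). For *Il10* they were *Cdc42se1* (0.985), *Fpr2* (0.977) and *Zbtb8a* (0.975). *Il15* was most like *Gcnt1* (0.985), *Birc3* (0.984) and *Gm20100* (0.984), and *Csf1* most like *Gm43181* (0.981), *Pim1* (0.978) and *Igdcc4* (0.974). *Il18* was most like *Gm11613* (0.975), *B3gnt3* (0.973) and *Smim14* (0.962). *Il1b* was most like *Angptl2* (0.943), *Gm11478* (0.925) and *Zfp995* (0.918). The correlations of the last 2 with *Il1b* were 0.811 and 0.793 over 9 tumors. Within a tumor, the genes compared share a library, its depth and its cell content.

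The genes lie on 8 chromosomes of GRCm38 (GENCODE M21), which may not be the annotation used for counting. *Il12b* is at chr11:44400063-44414033 on the plus strand, and *Il10* at chr1:131019845-131024974 on the plus strand. *Il1b* is at chr2:129364570-129371139 on the minus strand, *Il18* at chr9:50554827-50581840 on the plus strand and *Tnf* at chr17:35199381-35202007 on the minus strand. *Il6* is at chr5:30013114-30019981 on the plus strand and *Il15* at chr8:82331632-82403222 on the minus strand. *Csf1* is at chr3:107741048-107760469 on the minus strand. *Csf2*, at chr11:54247271-54249667 on the minus strand, and *Csf3*, at chr11:98701263-98703629 on the plus strand, share chromosome 11 with *Il12b*.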

How the data were processed

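The authors aligned trimmed reads and deposited whole-number counts per gene and tumor. The submitters' processing notes name FastQC, Trimmomatic, HISAT2 and HTSeq with the build mm10, without versions here. The counts are raw, and summary rows, which held 35.3 to 64.1% of the reads in a table, were left out of library sizes. Whether counting used strand is not given in the sources used here. Reads carry no molecular identifiers, so intervals cover counting error only where so stated. No 2 tumors of a group were alike within sampling noise.

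KO and NTC tumors, grouped by their labels, were compared with edgeR 4.0.16 (R 4.3.3) quasi-likelihood tests on the deposited counts, with TMM scaling and its filter on low counts (minimum count 10, total 15), checked on simulated data. CPM on a log2 scale used a prior count of 2. Each standard error was taken from the fold change and its F statistic. Alternatives were DESeq2 1.42.0, also over 9 tumors, RLE scaling, 2 other filters, no fold threshold, the replicate number as a block, the leukocyte score as a covariate and each tumor left out. Lists held 191 of 192 genes in the tables. Named are the 10 genes, pathway-list genes with an unadjusted p under 0.05 in either fit, the receptor, antagonist or partner of each member and the 3 genes most like it, of which 1 gene is not reported here. Cell type markers named as examples were chosen after their values were seen. The members and lists were chosen with earlier results of these data known. Positions came from GENCODE M21, which may not be the authors' annotation. The labels and the methods differ in the number of tumor cells injected. Python 3.11.15, pandas 2.3.3, numpy 2.4.6, scipy 1.17.1 and matplotlib 3.10.9 made the tables and figures.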

Additional observations from a re-analysis of the deposited data

Results flagged for a closer look

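Among 48 groups of 5 values checked, 8 held a tumor whose gap to its nearest neighbour was large for the range of its group, and chance gives about 1 in 20. In *Il1b*, NTC replicate 1 stood at 66.4 CPM and KO replicate 5 at 14.5 CPM, each above the other 4 tumors of its group. For *Csf3*, NTC replicate 1 stood at 0.674 CPM, or 0.252 reads per 1000 pan-leukocyte reads, from 5 reads. Per 1000 pan-leukocyte reads, *Il6* stood at 0.542 in KO replicate 3 and at 0.762 in NTC replicate 3. NTC replicate 1 also had the lowest total, 11896643 reads on genes, and 33193 genes with a count, against 22192 to 25435 in the other tumors.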

How the results depend on the processing

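Over 17 alternatives the direction of *Il12b*, *Il10* and *Csf2* did not change where a value could be had. *Il12b* ran from 1.13 to 2.81, with adjusted p from 0.0244 to 0.707, and passed the thresholds in DESeq2 over 9 tumors (2.40) alone. Requiring at least 10 counts in every tumor removed *Il12b*, *Il10*, *Il6*, *Csf2* and *Csf3* from the test. All genes called numbered 1 higher and 2 lower in KO. With at least 10 counts in every tumor they were 0 and 6, with DESeq2 24 and 72, with DESeq2 over 9 tumors 526 and 110, with the leukocyte score 4 were higher, and with no fold threshold 4 were lower. The cause was not tested. Leaving out 1 tumor gave 1 to 2 higher and 0 to 15 lower, the highest without NTC replicate 1. Cytokines at an unadjusted p under 0.05 numbered 1, and 0 with at least 10 counts in every tumor, 3 with the leukocyte score (*Il12b* higher, *Il1b* and *Il15* lower) and 2 with DESeq2 over 9 tumors (*Il12b* and *Il10* higher), and 1 to 1 leaving out each tumor. Of all genes, 6.23% were higher and 6.59% lower at that threshold with the leukocyte score, and 14.6% and 7.89% with DESeq2 over 9 tumors.

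With the leukocyte score, log2 fold changes turned to -0.21 for *Il18*, -0.29 for *Tnf*, -0.11 for *Il6*, -0.37 for *Il15* and -0.20 for *Csf1*, and *Il1b* was at -1.78 (edgeR p 0.0349, adjusted p 0.342). DESeq2 over 9 tumors turned *Il1b* to 0.46 and *Csf3* to 0.56. Leaving out each tumor, *Il1b* ran from -2.02 to 0.42 (above 0 without NTC replicate 1), *Csf3* from -3.10 to 0.56 (likewise), *Csf1* from -0.042 (without KO replicate 5) to 0.37, and *Il6* from -0.046 to 1.31 (below 0 without NTC replicate 2, 4 or 5, at -0.046, -0.030 and -0.0057). In the same fits *Tnf* ran from 0.19 to 0.99, *Il15* from 0.019 to 0.40, *Il18* from 0.0078 to 0.34 and *Il10* from 0.89 to 1.51. Each of these was lowest without KO replicate 5. The causes were not tested. Deviations of same-numbered tumors from their group means correlated at 0.172, -0.287, 0.0788, 0.633 and 0.206. KO replicates 1 and 4 correlated best with the NTC tumor of their own number, and KO replicates 2, 3 and 5 did not. These values do not settle whether replicate numbers pair the tumors. With the replicate block, 1 gene was higher and 0 were lower, and *Il12b* had 2.22 (adjusted p 0.354), while *Il1b* moved to -0.49, *Csf3* to -0.77 and *Il6* to 0.92. Depth limits *Il6*, *Csf2* and *Csf3*, with at most 24 reads in a tumor.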
